A study of Mus musculus with 10 samples.

Results

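The accessible regions described here are the 125 bp windows of open chromatin that were listed in all 4 groups of MC3T3-E1 cells, an established mouse osteoblast line, compared between libraries with and without BMP4. The assay was ATAC-seq: a transposase inserts adapters where DNA is not covered by nucleosomes, and the sequenced insertion ends are counted as tags. A window of the list of untreated cells was kept when each of the other 3 lists held a window on the same chromosome whose start lay within 62 bp. This left 14722 of the 26230 windows of that list, out of 97788 entries in all 4 lists together, and 14712 of them passed a minimum count and were tested. A region that was open in only some of the groups is not among them.

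The 4 groups had 2 libraries each: untreated cells, cells given TNFa at 10 ng/ml, cells given BMP4 at 10 ng/ml, and cells given both at those doses, all in serum-reduced medium. BMP4 was given for 3 h. TNFa lasted 3 h by the sample labels, whereas the treatment protocol has 30 min of TNFa before BMP4, and the titles of the TNFa libraries, unlike the rest, include p65 without explanation, so levels in that group carry both doubts. The labels used here name no batch, and nothing says whether replicates are separate cultures, so the p-values reflect library-to-library spread that may be technical. A further 2 libraries of sonicated DNA from the same line were the authors' background. Their names carry another prefix than those of the 4 groups, without explanation.

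BMP4 is a secreted ligand of the TGF-beta superfamily that is known for driving mesenchymal cells towards bone and cartilage. It binds type I and type II receptor kinases, which phosphorylate SMAD1, SMAD5 and SMAD9, and these enter the nucleus with SMAD4 and bind DNA beside other factors. The Id genes, which encode helix-loop-helix proteins without a DNA-binding region, and Smad6 and Smad7, which encode inhibitors of the pathway, are its textbook early target genes. In bulk cells a window that opens further in each cell and a window that opens in more cells cannot be told apart.

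The promoters of Id1, Id2, Id3, Id4 and Smad6 each held a window, and sequences of the last 4 genes are shown because the results on target genes turn on them. They are from RefSeq (GRCm38.p6, the mm10 assembly), 5′ to 3′ on the strand of the gene. Each covers the part of the window within the promoter, 250 bases before to 50 bases after the annotated start. The stretches are cut at 10 bases past the start, which shortens that of Smad6. Capitals mark GTCT or its complement AGAC, the short element that SMAD4 is known to bind.
Id3 (chr4:136143641-136143765, plus strand, from -181 to -57): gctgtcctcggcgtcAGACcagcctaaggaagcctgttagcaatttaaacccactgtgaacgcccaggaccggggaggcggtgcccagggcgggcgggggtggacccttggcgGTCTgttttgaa
Id2 (chr12:25096129-25096253, minus strand, from -161 to -37): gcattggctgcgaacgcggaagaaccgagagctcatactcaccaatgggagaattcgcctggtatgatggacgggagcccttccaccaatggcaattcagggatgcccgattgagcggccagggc
Id4 (chr13:48260866-48260936, plus strand, from -250 to -180): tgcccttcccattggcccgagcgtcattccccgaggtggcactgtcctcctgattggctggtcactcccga
Smad6 (chr9:64022050-64022120, minus strand, from -61 to 10): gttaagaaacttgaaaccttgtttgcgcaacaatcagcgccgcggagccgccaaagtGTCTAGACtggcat

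GTCT or AGAC occurred 2 times in the stretch of Id3 and 2 times in that of Smad6, where the pair spans the start site as GTCTAGAC, and not in those of Id2 and Id4. GGCGCC, a GC-rich element known to be bound by SMAD1 and SMAD5, was in none of the 4 stretches. The stretches of Id4 and Smad6 are only 71 bases long. Outside the stretches, the 300 bp promoters of Id2 and Id4 held 1 GGCGCC each, and that of Id2 held 1 GTCT or AGAC. Searched on both strands, GTCT was present in 88.0% of 32851 RefSeq promoters of 300 bp, and in 52.4% of the 3048 tested windows that lay wholly in such a promoter. GGCGCC was present in 11.9% of those promoters and in 11.6% of those windows. The 8 letters GTCTAGAC, searched after the Smad6 sequence had been seen, were in 0.2% of promoters and in 2 of the windows. A match describes the letters and not binding.

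Library totals ran from 16486612.5 to 30051723 tags, and the matched windows held 3.65% to 4.78% of the tags in the 4 libraries without BMP4 and 3.56% to 5.74% in the 4 with it. The background libraries had 0.23% and 0.26% of their tags in these windows. On the first principal component, which held 63.1% of the variance, a library of each replicate number stood apart from the others. Replicate 2 of the group given both agents scored -12.8, against 95.1, 42.2 and 96.6 for replicate 2 of the untreated, TNFa and BMP4 groups. Replicate 1 of the untreated cells scored -15.4, against -58.9, -72.2 and -74.5 for replicate 1 of the TNFa, BMP4 and combined groups. Of the 21 osteoblast genes looked at, 17 had a tested window, Runx2, Sp7, Col1a1 and Col1a2 among them and Alpl and Bglap not. Of markers of other cell types, 5 of 16 chondrocyte genes (Sox9 and Col2a1 among them), 4 of 11 adipocyte genes (Cebpa and Adipoq), 3 of 14 muscle and endothelial genes (Pecam1, Cdh5 and Flt1) and 2 of 14 haematopoietic genes (Runx1 and Csf1r) had one. Ptprc, Spi1, Myod1, Pparg, Fabp4 and Acan had none.

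No single window passed the test of BMP4 across both TNFa states. The fit took the 4 libraries with BMP4 against the 4 without, with TNFa and replicate number as terms, and the log2 difference of a window had a median standard error (SE) of 0.3. At an adjusted p under 0.05 (limma, Benjamini-Hochberg over 14712 windows), 0 windows were higher with BMP4 (0% of those tested) and 0 were lower (0%). The smallest adjusted p was 0.161. At an unadjusted p under 0.05, limma gave 1889 windows, 1019 higher (6.93%) and 870 lower (5.91%), and limma with voom weights gave 0 adjusted and 1776 unadjusted calls. With 2 replicates in each of 2 TNFa states, each BMP4 library has a matched library without BMP4, and 1954 windows (13.3%) were higher in all 4 such pairs and 2020 (13.7%) lower. The 4 libraries with BMP4 all lay above the 4 without in 112 windows (0.761%) and all below in 129 (0.877%). Scaling by total tags instead of by the trimmed mean of M-values turned the last 2 counts into 245 and 33, and the unadjusted calls into 1076 higher and 580 lower. The scaling centres the bulk of windows near 0: 7250 of 14712 lay above 0 and the median difference was -0.01, so a shift of all windows together could not be seen. Without the replicate term 316 windows had an unadjusted p under 0.05. Leaving out replicate 1 of BMP4 gave 845, replicate 1 of the untreated cells 1193 and replicate 2 of TNFa 1174, and without replicate 2 of the untreated cells 1 window, at the promoter of Slx4ip, passed the adjusted test. Differences of single windows are therefore given as sizes with their spread.

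Among target genes the largest differences were at Id3. The scaled level of a window is given per 1e6 tags counted in all tested windows (CPM). At the Id3 promoter, centred 119 bp before the start, the untreated libraries had 96.7 and 164 CPM and the TNFa libraries 55.6 and 86.3, against 356 and 283 for BMP4 and 274 and 228 for the combination. Every library with BMP4 lay above every library without it. The log2 difference was 1.57 ± 0.27 (SE, n = 4 against 4, limma adjusted p = 0.176), and the window held 200 to 454 tags in the libraries with BMP4 and 11 and 9 in the background libraries.

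A second Id3 element lay 8649 bp upstream (chr4:136135111-136135235, intergenic). It measured 35.3, 20.9, 47.2 and 13.0 CPM in the untreated and TNFa libraries, and 207, 49.3, 147 and 70.6 CPM in the BMP4 libraries and those with both agents. The groups did not overlap, though replicate 2 of BMP4 alone lay just above the highest library without BMP4. Its difference of 1.88 ± 0.3 (limma adjusted p = 0.176) was the largest of the windows of target genes. The neighbouring window 9038 bp upstream gave 1.58 ± 0.27 but overlapped, with 38.7 CPM in BMP4 replicate 2 below 39.5 in untreated replicate 1. These neighbouring windows share a locus and are not independent. The 2 other Id3 windows, 3316 and 20282 bp upstream, gave 0.59 ± 0.3 and -0.28 ± 0.26.

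Id1 and Id2 each had 1 window with no overlap between the groups. At the Id1 promoter (chr2:152736151-152736275) the untreated libraries had 33.6 and 28.8 CPM, the TNFa libraries 16.8 and 34.3, the BMP4 libraries 45.6 and 78.6 and those given both 35.6 and 81.8. The lowest BMP4 library exceeded the highest without by 35.6 against 34.3 CPM, and the difference was 1.0 ± 0.3 (limma adjusted p = 0.268). For Id2, a window 2833 bp upstream (chr12:25098863-25098987) had 58.8, 28.8, 32.0 and 35.5 CPM without BMP4 and 74.6, 68.7, 69.9 and 98.6 CPM with it, a difference of 1.01 ± 0.31 (limma adjusted p = 0.273). The Id2 promoter window overlapped between groups and gave 0.49 ± 0.3. The other Id1 windows gave 0.61 ± 0.32 at 9326 bp upstream and 0.07 ± 0.28 at 5309 bp downstream of the start.

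Id4 had windows of opposite sign. Its promoter measured 89.1, 127, 62.3 and 116 CPM without BMP4 and 27.8, 129, 30.2 and 69.4 CPM with it. The BMP4 libraries were lower in replicate 1 of both TNFa states, while without TNFa the replicate 2 libraries were alike, and the difference was -0.83 ± 0.31 (limma adjusted p = 0.314). A window 33194 bp upstream of Id4 gave 0.82 ± 0.32 (limma adjusted p = 0.319).

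At the start site of Smad6, the stretch with GTCTAGAC, the level was 26.1, 65.5, 27.0 and 37.8 CPM without BMP4 and 65.7, 140.4, 67.2 and 51.5 CPM with it. Each BMP4 library was above its match, but replicate 2 of the group given both lay below replicate 2 of untreated cells, so the groups overlapped. The difference was 1.01 ± 0.32 (limma adjusted p = 0.275). The other 4 Smad6 windows ranged from -0.52 to 0.36, and the 4 Smad7 windows from -0.36 to 0.2. The lowest of Smad6 was a second promoter window 940 bp upstream (-0.52 ± 0.48), opposite in sign to the start site. Its pairs differed by -2.0 and -1.66 in replicate 1 and by 0.46 and 1.12 in replicate 2.

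**Figure D1:**
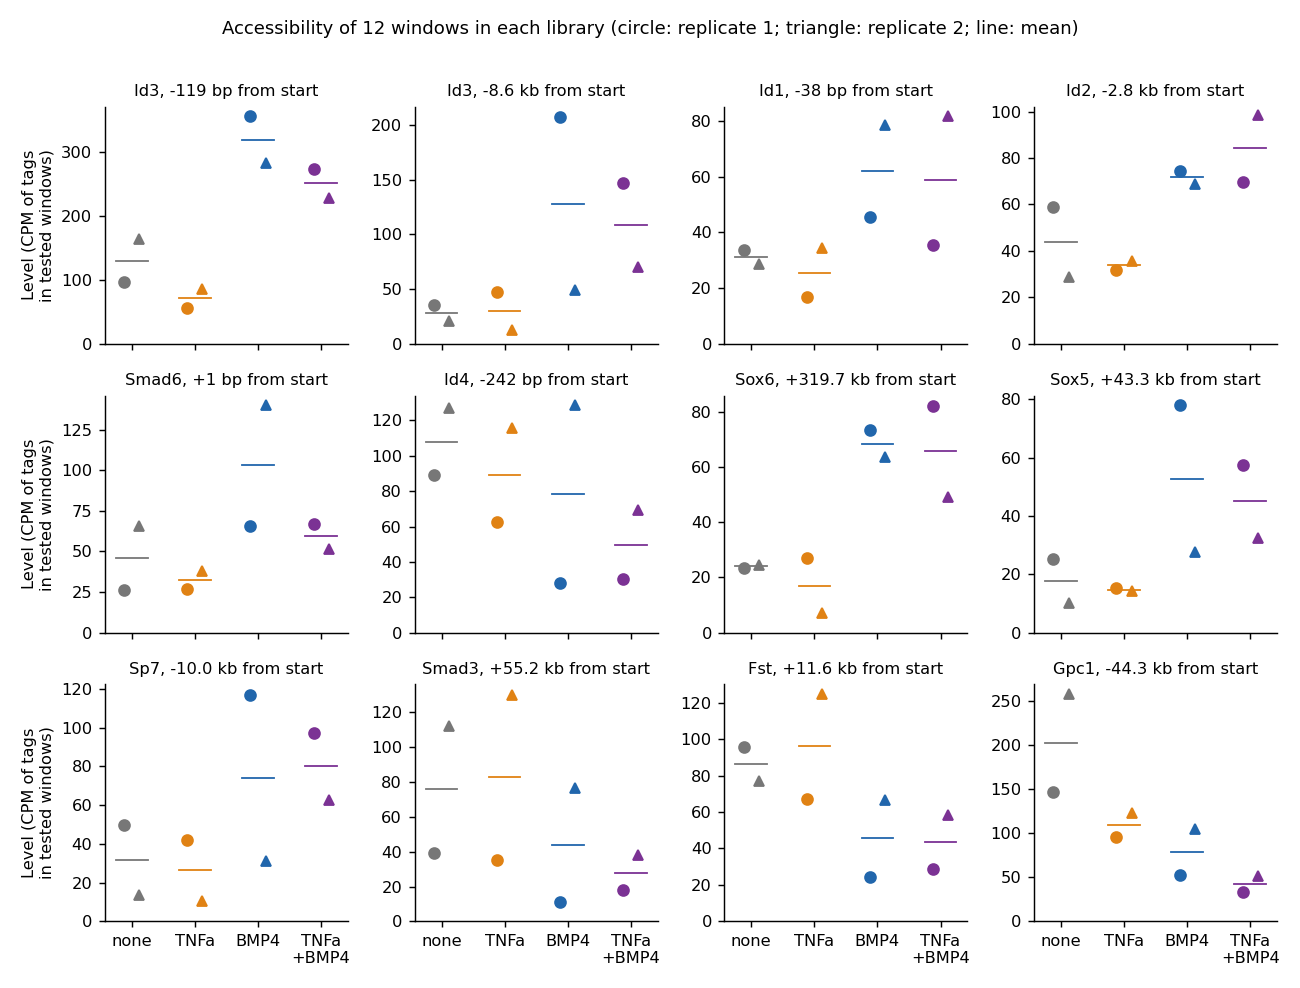
Level in CPM of tags in tested windows (vertical axes, from 0) of 12 windows in each of the 8 libraries, by group; circles are replicate 1, triangles replicate 2 and lines the mean of both. The 4 libraries with BMP4 lie above the 4 without at the Id3 promoter (228 to 356 against 55.6 to 164 CPM), whereas at Smad3 and Gpc1 the libraries with BMP4 tend to be lower and overlap with the rest.

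Over the whole list of 25 BMP target genes, 16 had a tested window, 40 windows in all, and none passed the adjusted test. Of these windows 28 lay above 0, and their median difference was 0.33 against -0.01 over all windows. At an unadjusted p under 0.05, 9 (22.5%) were higher and 2 lower, beside 6.93% and 5.91% of all windows. In all 4 pairs 16 of these windows were higher and 1 lower, beside 13.3% and 13.7% of all windows. The medians within the 4 pairs were 0.4 and 0.3 without TNFa and 0.34 and 0.16 with it. Leaving out replicate 1 of the untreated cells brought the list's median to 0.2, leaving out replicate 1 of the group given both to 0.22, and leaving out replicate 2 of that group took the higher windows from 9 to 15.

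The remaining target windows at an unadjusted p under 0.05 were named after their values were seen. Higher were a window 8808 bp upstream of Atoh8, a helix-loop-helix transcription factor (0.88 ± 0.31), in which the groups did not overlap, and one 42508 bp upstream of Dlx2, a homeobox gene (0.7 ± 0.27). Lower was a window 31221 bp from the start of Gadd45b, a stress response gene (-0.94 ± 0.33). No window was tested near Msx1, Msx2, Hey1, Bambi or Gata2.

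The ligands, receptors and SMADs had few windows. Of 13 ligand genes 2 were the nearest gene of a window, none with an unadjusted p under 0.05. Bmp4 gave 0.56 ± 0.32 and 0.03 ± 0.27, and Bmp3 0.49 ± 0.38 at an intron window 89511 bp from its start. A window inside a ligand gene but assigned to another gene is not counted here. Among 13 receptor and coreceptor genes 6 had 12 windows with a median of 0.11. At an unadjusted p under 0.05, 1 was higher (8.33%), a share near the 6.93% of all windows. This was a window 1389 bp upstream of Bmpr2, which encodes the type II receptor. It measured 33.6, 18.7, 69.1 and 20.1 CPM without BMP4 and 97.9, 22.5, 119 and 23.5 CPM with it. The difference sat mainly in the replicate 1 libraries, 1.49 and 0.77 in those pairs against 0.24 and 0.21 in the replicate 2 pairs, and the fit gave 0.68 ± 0.3 (limma adjusted p = 0.382). Windows of the coreceptor gene Hjv gave -0.6 ± 0.29 and 0.31 ± 0.26, and one in the type I receptor gene Acvr1 gave -0.53 ± 0.34.

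The receptor-regulated and common SMAD genes had 10 windows, 2 of them above 0, with a median of -0.26 and 3 lower in all 4 pairs, beside 13.7% of all windows. The window furthest from 0 lay in intron 1 of Smad3, a TGF-beta receptor SMAD (chr9:63702723-63702847). Its levels were 39.5, 112, 35.4 and 130.1 CPM without BMP4 and 11.1, 76.8, 17.8 and 38.1 CPM with it. Each BMP4 library was below its match, but BMP4 replicate 2 lay above replicate 1 of the untreated and TNFa cells. The difference was -1.21 ± 0.31 (limma adjusted p = 0.221). The Smad2 promoter gave -0.46 ± 0.27 and a window upstream of Smad5 -0.27 ± 0.29, and no window was tested near Smad1, Smad4 or Smad9.

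Inhibitors of the pathway lay on both sides of 0. Of 22 genes 14 had 39 windows, 17 of them above 0, with a median of -0.1; 5 were higher and 3 lower at an unadjusted p under 0.05 (6.93% and 5.91% of all windows), and 7 and 6 in all 4 pairs (13.3% and 13.7% of all). A window near Fst, which encodes follistatin, a secreted protein that binds activins and BMPs, measured 95.8, 77.1, 67.4 and 125 CPM without BMP4 and 24.5, 66.8, 28.8 and 58.2 CPM with it. These groups did not overlap, by 66.8 against 67.4 CPM, and the difference was -1.09 ± 0.31 (limma adjusted p = 0.265). Tob1, an antiproliferative gene whose product binds SMADs, had 1 window at -1.07 ± 0.28, 77878 bp upstream of its start (limma adjusted p = 0.225), while another of its windows, named after its value was seen, gave 0.88 ± 0.31. Smad6, Smad7 and Nog belong to both this list and the targets.

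Genes of the osteoblast itself had 48 windows with a median of 0.07, and 3 were higher (6.25%) and 1 lower at an unadjusted p under 0.05, a share of higher windows near the 6.93% of all. Differences in this list ran from -1.06 to 1.45, and 27 of the 48 windows lay above 0. The 2 with the smallest p lay upstream of Sp7, which encodes Osterix, a transcription factor required for osteoblasts. At 10032 bp upstream (chr15:102376938-102377062) the levels were 49.6, 13.7, 42.1 and 10.6 CPM without BMP4 and 117, 31.2, 97.3 and 62.7 CPM with it. The start of this window shifted by up to 59 bp between lists, so the groups were counted over partly different bases. Each library with BMP4 was above its match, yet BMP4 replicate 2 was below replicate 1 of untreated cells. The difference was 1.45 ± 0.31 (limma adjusted p = 0.196), and the neighbouring window 10381 bp upstream gave 1.28 ± 0.32. A window 119336 bp from the start of Postn, which encodes the matrix protein periostin, was named after its value was seen and gave 0.79 ± 0.27.

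Chondrocyte markers had 11 windows in 5 of 16 genes, 9 of them above 0, with a median of 0.51 against -0.01 over all windows; 4 were higher and 0 lower at an unadjusted p under 0.05 (36.4% higher, beside 6.93% of all). Their medians in the pairs were 0.61 and 0.68 in replicate 1 and 0.22 and 0.15 in replicate 2, and 0.28 with replicate 1 of the group given both left out. With starts within 31 bp the median was 0.3 over 8 windows, and with identical starts 1.12 over 2. The windows with the smallest p lay in introns of Sox6 and Sox5, which encode partners of SOX9 in cartilage. The Sox6 window (chr7:115481876-115482000, intron 15) measured 23.5, 24.5, 27.0 and 7.09 CPM without BMP4 and 73.4, 63.7, 82.2 and 49.3 CPM with it, and the groups did not overlap. The difference was 1.73 ± 0.33 (limma adjusted p = 0.187). In intron 1 of Sox5 (chr6:144166219-144166343) the levels were 25.2, 10.1, 15.2 and 14.2 CPM without BMP4 and 77.9, 27.5, 57.6 and 32.5 CPM with it, again without overlap, a difference of 1.43 ± 0.29 (limma adjusted p = 0.194). The other 2 higher windows, named after their values were seen, were a neighbour in Sox5 (1.28 ± 0.33) and one in Col2a1, the collagen of cartilage (0.77 ± 0.23). The 2 windows of Sox9 lay at 0.05 ± 0.26 and 0.03 ± 0.27, and no window was tested near Acan, Col10a1 or Ihh.

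Other lineages had few windows. Adipocyte markers had 10 with a median of 0.07 and a mean of -0.07, led by the promoter of Zfp423, a zinc finger gene of preadipocytes, at -0.94 ± 0.24 (limma adjusted p = 0.221). A second Zfp423 window gave -0.47 ± 0.25, while the other 3, named after their values were seen, gave 0.67 ± 0.39, 0.51 ± 0.33 and 0.25 ± 0.3, and 6 of the 10 windows of the list lay above 0. Muscle and endothelial markers had 5 windows with a median of 0.48, of which Pecam1 gave 0.78 ± 0.26 and Cdh5 0.9 ± 0.38. Haematopoietic markers had 11 windows with a median of 0.3, 10 of them at Runx1, a transcription factor that is also expressed in skeletal cells, where the leading windows gave 1.11 ± 0.31 and 0.92 ± 0.28. Other Runx1 windows, named after their values were seen, were lower in all 4 pairs, at -0.81 ± 0.33 and -0.53 ± 0.27.

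Cytokine and survival genes had medians near that of all windows. NF-kB targets had 45 windows with a median of -0.01, and 1 was higher and 3 were lower at an unadjusted p under 0.05, where 6.93% and 5.91% of all windows were. Of these, a window upstream of Cd44, a cell surface receptor for hyaluronan, had 11.8, 18, 13.5 and 21.3 CPM without BMP4 and 6.68, 6.24, 6.85 and 8.96 CPM with it. The scaled levels of the groups did not overlap (-0.96 ± 0.27, limma adjusted p = 0.248). The window held only 5 to 10 tags with BMP4 and 8 to 25 without, and these unscaled counts overlapped. The Nfkb2 promoter gave -0.66 ± 0.25. Inhibitors of cell death had 18 windows with a median of 0.06 and 0 at an unadjusted p under 0.05 in either direction, Xiap at -0.42 ± 0.25 and Birc5 at 0.46 ± 0.28. Effectors of cell death had 24 windows with a median of -0.04 and a mean of -0.13, 0 higher and 3 lower (6.93% and 5.91% of all windows). Pmaip1, which encodes the BH3-only protein NOXA, gave -0.81 ± 0.27 at a window 12987 bp from its start, and the promoter of Bcl2l11, which encodes BIM, gave -0.92 ± 0.32. A neighbouring Bcl2l11 window, named after its value was seen, gave 0.4 ± 0.3.

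Beside the 6.93% higher and 5.91% lower of all windows at an unadjusted p under 0.05, AP-1 genes had 28 windows with a median of 0.15, 2 of them higher, both at Fosb (0.94 ± 0.3 and 1.15 ± 0.42). Wnt pathway genes had 41 windows with a median of 0.15, 6 higher and 3 lower, and the leading windows, neighbours far upstream of the transcription factor gene Lef1, gave 1.12 ± 0.31 and 1.07 ± 0.33. Housekeeping genes, taken as controls, had 39 windows with a median of 0.14, 2 higher and 1 lower. A window in Ppia, which had the smallest p of them, gave 0.87 ± 0.28.

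**Figure D2:**
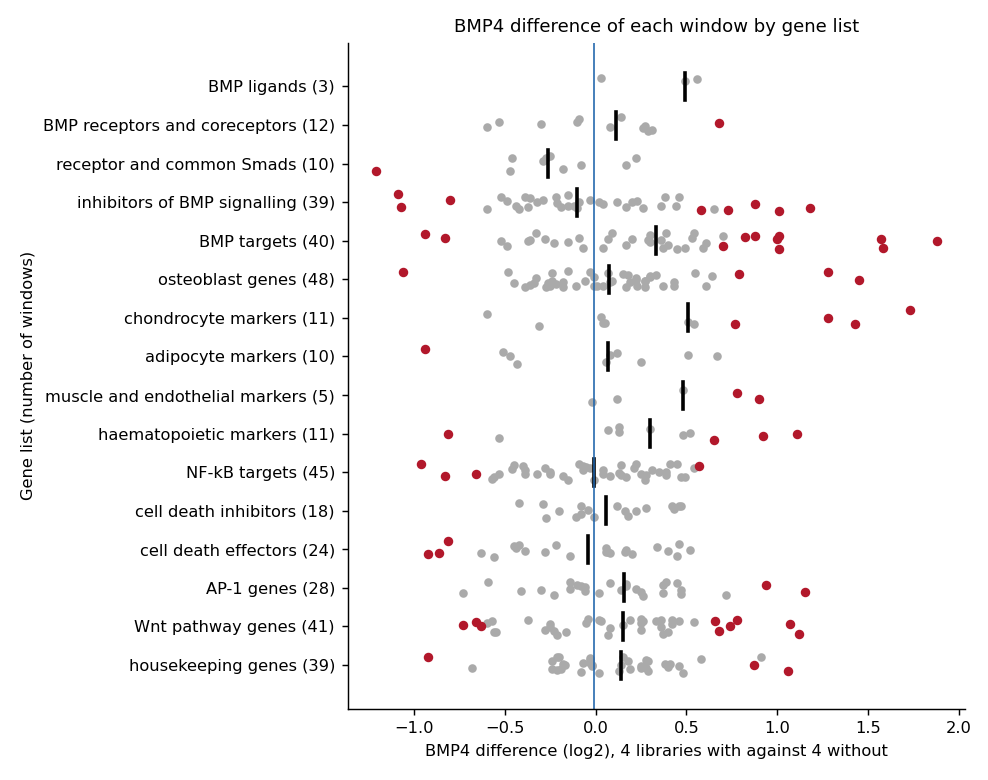
Log2 BMP4 difference (horizontal axis) of every tested window by gene list (vertical axis, number of windows in brackets); red points have an unadjusted limma p under 0.05, black bars are list medians and the blue line is the median of all windows, -0.01. The bar of the BMP targets stands at 0.33 and that of the chondrocyte markers at 0.51, and single windows of every list but the BMP ligands lie on both sides of 0.

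The windows with the smallest p outside these lists lay mostly outside promoters. The smallest of all lay in an intergenic region 38782 bp from the start of A730020M07Rik (chr3:121604641-121604765). Its levels were 63, 57.6, 85.9 and 70.9 CPM without BMP4 and 258, 173, 299 and 199 CPM with it. The lowest library with BMP4 was well above the highest without, at 173 against 85.9 CPM, and the pairs differed by 2.0, 1.55, 1.78 and 1.47. The fitted difference was 1.7 ± 0.24 (limma unadjusted p = 1.10e-05, adjusted p = 0.161). With the scaling and the limma fit redone on fewer windows, its adjusted p depended on the subset. The values were 0.0345 among windows outside promoters and 0.0387 among those with the same start in every list. No window passed 0.05 among those with starts within 31 bp (smallest limma adjusted p = 0.127). The same held at a mean count of at least 30 (smallest limma adjusted p = 0.155). Over all alternatives its adjusted p ran from 0.0272 to 0.998, the last without the replicate term.

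Of the 12 higher windows with the smallest p, 3 were at Id3 and 1 at Sox6. The others included an intron of Grhl3, an epithelial transcription factor gene (1.54 ± 0.26), the promoter of Dyrk2, a protein kinase gene (1.46 ± 0.25), a window upstream of Trabd2b, which encodes a protease that cleaves Wnt proteins (1.44 ± 0.27), and windows assigned to D630013N20Rik (1.73 ± 0.3), Sem1 (1.79 ± 0.32), Fam50b (1.56 ± 0.29) and Rab44 (1.51 ± 0.29). At Dyrk2 the levels were 68.9, 41.8, 69.1 and 37.8 CPM without BMP4 and 236, 109.9, 174 and 105 CPM with it, and the groups did not overlap. At Grhl3 they were 41.2, 30.2, 32.0 and 26 CPM against 126, 83.6, 116 and 70.6, also without overlap. Adjusted p-values of the 12 ran from 0.161 to 0.187 (limma).

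The 12 lower windows had differences from -1.5 to -1.26 and adjusted p-values from 0.187 to 0.196 (limma). The smallest p was at a window 44311 bp upstream of Gpc1, which encodes glypican-1, a cell surface proteoglycan that binds growth factors. It measured 147, 258, 96.0 and 123 CPM without BMP4 and 52.3, 105, 32.9 and 51.5 CPM with it. Each pair was lower by a like amount (-1.46, -1.27, -1.49 and -1.22), though BMP4 replicate 2 exceeded replicate 1 of the TNFa cells. The fitted difference was -1.36 ± 0.26.

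Others among the 12 were at Spryd3 (-1.47 ± 0.3), Rflna (-1.34 ± 0.29), Hhat, the acyltransferase of hedgehog proteins (-1.26 ± 0.27), Cpq (-1.3 ± 0.27), Ahdc1 (-1.43 ± 0.31) and the promoter of Fxr2, which encodes an RNA-binding protein (-1.46 ± 0.32). At Cpq the levels were 12.6, 19.4, 18.5 and 28.4 CPM without BMP4 and 5.56, 8.74, 5.48 and 6.72 CPM with it, with no overlap. Its unscaled counts, 4 to 14 tags with BMP4 and 11 to 27 without, did overlap. The remaining 5 were assigned to genes known by clone or model names: Gm5079, 1810053B23Rik, 4930579J19Rik, E130006D01Rik and 4930471G24Rik. The assignment is to the nearest gene and does not name the gene a window lies in. The 4930579J19Rik window (-1.36 ± 0.28) lay in intron 1 of a transcript, 51311 bp from the start of the gene it was assigned to.

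**Figure D3:**
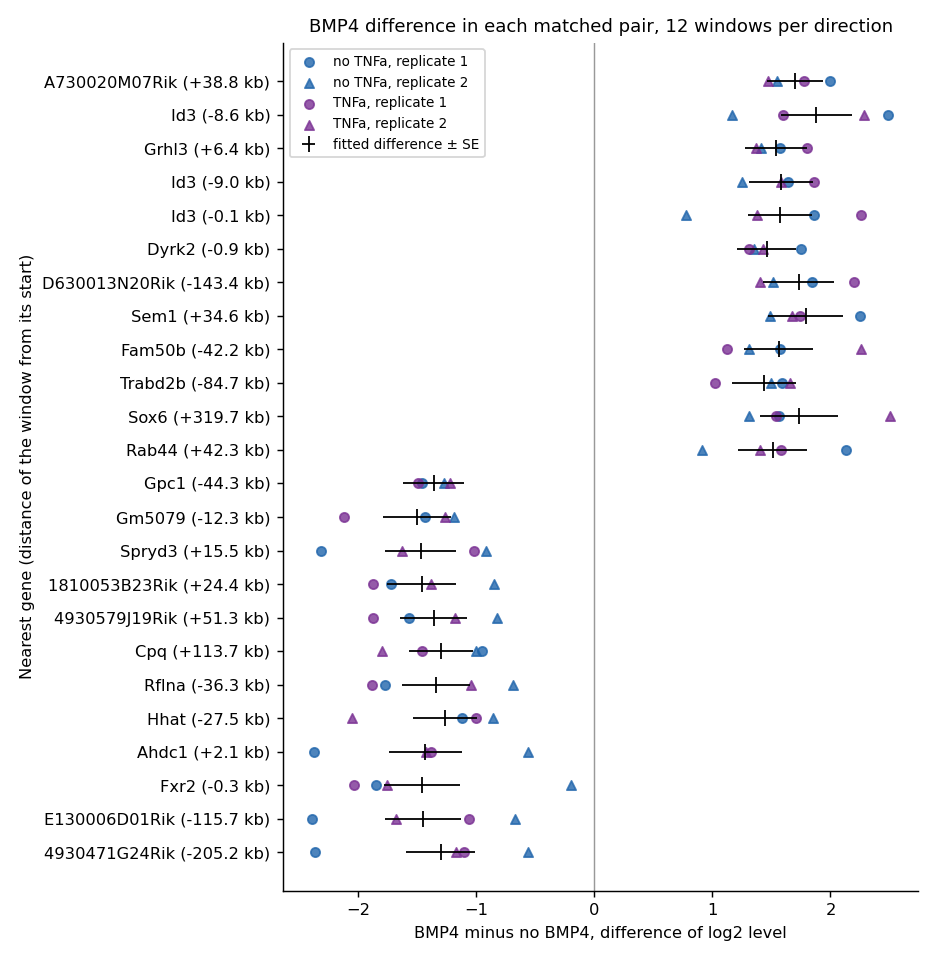
Difference of log2 level between each library with BMP4 and the library without BMP4 of the same TNFa state and replicate number (horizontal axis) for the 12 windows per direction with the smallest p (vertical axis); circles are replicate 1, triangles replicate 2, blue without TNFa and purple with it, and black marks are fitted differences with their SE. All points of a window lie on 1 side of 0 because the windows were chosen so, and the spread within a window, from -2.03 to -0.2 at Fxr2 and from 1.47 to 2.0 at A730020M07Rik, is what can be read from it.

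Genes with several windows showed how far differences ran along a locus. Of 1385 genes with at least 3 tested windows, 17 (1.23%) had 3 or more higher at an unadjusted p under 0.05 and 8 (0.578%) had 3 or more lower. Lmna, Tgfb3, Ccn2, Irx3, Lpin1, Ccnd1 and Rad23b were chosen after their values were seen, and windows of 1 gene are not replicates of each other.

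Lmna, which encodes the nuclear lamins A and C, had 8 windows over 25.9 kb, 7 above 0 and 6 higher at an unadjusted p under 0.05, with a median of 0.78. Only the window furthest upstream, 11109 bp before the start, separated the groups, with 86.6, 82.1, 131 and 79.2 CPM without BMP4 and 181, 139, 223 and 146 CPM with it (0.85 ± 0.24, limma adjusted p = 0.263). The Lmna start site itself gave 0.41 ± 0.26. Tgfb3, a TGF-beta ligand gene, had 6 windows, 4 of them higher, with a median of 0.81, and its start site gave 0.79 ± 0.29.

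Ccn2, a matricellular gene also called CTGF, had 3 neighbouring windows at 1.16 ± 0.36, 1.2 ± 0.32 and 1.23 ± 0.35, 5561 to 6366 bp upstream. At the last of these the levels were 18.5, 10.1, 53.9 and 7.09 CPM without BMP4 and 55.6, 10.6, 119 and 41.4 CPM with it. BMP4 replicate 2 was therefore at the level of its untreated match, and the difference sat in the other 3 pairs. Irx3, a homeobox gene, had 4 windows, all above 0, with 1.12 ± 0.35 just after its start.

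On the lower side, Lpin1, which encodes a phosphatidate phosphatase of lipid synthesis, had 10 windows, 9 below 0 and 5 lower at an unadjusted p under 0.05, with a median of -0.64. All lay 56350 to 266094 bp from its start in intergenic sequence, so the assignment rests on Lpin1 being the nearest gene. In the one with the smallest p the levels were 37.0, 42.5, 32.0 and 40.2 CPM without BMP4 and 20, 18.1, 11 and 17.9 CPM with it, without overlap (-1.11 ± 0.27, limma adjusted p = 0.215). Ccnd1, which encodes cyclin D1, had 10 windows with a median of -0.22, and the 3 lower ones lay 61268 to 90978 bp upstream at -0.78, -0.96 and -0.73. The 4 windows of Gpc1 were all below 0, from -1.36 to -0.43. Rad23b, a DNA repair gene, had 3 windows, all lower, with -1.08 ± 0.27 at a window where the groups did not overlap.

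**Figure D4:**
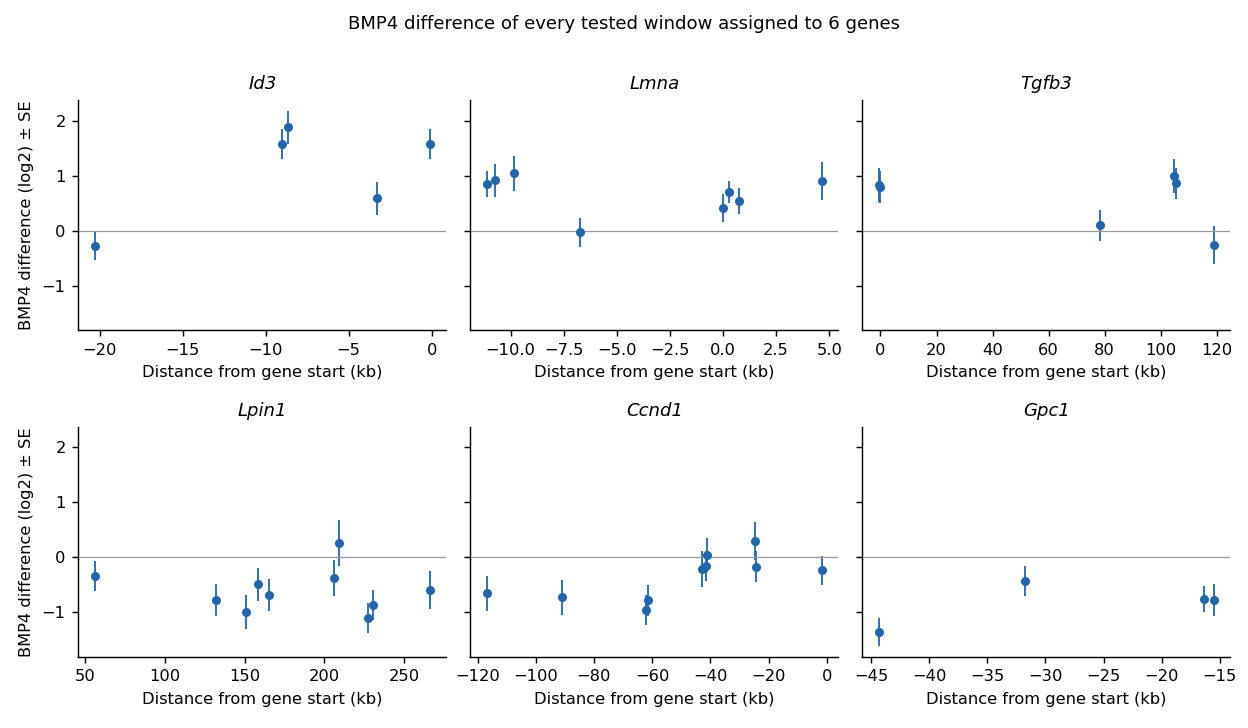
Log2 BMP4 difference with its SE (vertical axis) of every tested window of 6 genes against distance from the gene's start in kb (horizontal axes, each with its own range). At Lmna 7 of 8 windows lie above 0, at Lpin1 9 of 10 below it, and at Id3 the windows at -119, -8649 and -9038 bp stand above the other 2.

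Windows outside promoters made up 59.3% of those tested (8729). Of them 8.01% were higher and 7.03% lower at an unadjusted p under 0.05, against 5.35% and 4.28% of the 5983 promoter windows. The difference between these classes was not tested. Among windows wholly in a RefSeq promoter, GGCGCC was present in 12.2% of the 115 higher and 14.5% of the 124 lower ones, beside 11.6% of all, and GTCT in 53.0% and 60.5%, beside 52.4%. The median difference was -0.03 both with GGCGCC and without it, and -0.03 in each of 3 bins of GC content.

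The BMP4 difference was also estimated within each TNFa state, where it rests on 2 libraries against 2 and its median SE was 0.48. At the Id3 promoter it was 1.32 ± 0.43 without TNFa and 1.82 ± 0.43 with it, and at the window 8649 bp upstream 1.83 ± 0.49 and 1.94 ± 0.49. Id1 gave 0.9 ± 0.49 and 1.1 ± 0.49 at its promoter, Id2 0.77 ± 0.5 and 1.25 ± 0.5 at 2833 bp upstream, and Smad6 1.17 ± 0.51 and 0.84 ± 0.51 at its start. None of these pairs of values differed by more than the SE of their difference, which was 0.61 for the Id3 promoter and 0.72 for Smad6. Such SEs leave room for sizeable differences in either direction.

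The product of BMP4 and TNFa, which tests whether the BMP4 difference depends on TNFa, passed an adjusted p of 0.05 in 0 windows (0%), and 16 windows (0.109%) had an unadjusted p under 0.05 (limma). With voom weights the numbers were 0 and 15. Such shares lie well below the threshold of 0.05 itself, and the median SE of the interaction was 0.69. Few calls therefore do not show that the BMP4 difference is the same in both TNFa states. The window with the smallest p was 8790 bp from the start of Fosb, a gene of the AP-1 family. Untreated libraries had 6.72 and 18 CPM there, BMP4 libraries 53.4 and 20, TNFa libraries 30.3 and 21.3, and those given both 34.3 and 1.12. The interaction was -2.78 ± 1.06 (limma adjusted p = 1.00), and its low value with both agents came from 1 library, which held 1 tag in the window. Without replicate 1 of the group given both, which leaves that library alone in its group, 5 windows passed an adjusted p of 0.05, Fosb among them at -4.49 (limma adjusted p = 0.00769, and up to 1 under other settings).

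An intron window assigned to 4930435F18Rik was lower with BMP4 by -0.72 ± 0.45 without TNFa and -2.27 ± 0.45 with it, where both libraries given the pair of agents were at 2.74 and 8.96 CPM against 20.2 and 52.0 with TNFa alone. Nfatc2, a transcription factor gene of the NFAT family, gave 0.72 ± 0.45 without TNFa and -0.77 ± 0.45 with it. On the other side, windows of Rnf144b, Cldn34-ps and Cndp2 had interactions of 1.78 ± 0.75, 1.42 ± 0.63 and 1.88 ± 0.85. All had a limma adjusted p of 1.00.

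Across the 14712 windows, the differences without and with TNFa, which share no library, had a Pearson correlation of 0.623, given as a description since windows are not independent. It was not shared evenly by the replicates: the replicate 1 pairs of the 2 states correlated at 0.637, and every other combination of pairs at 0.118 to 0.264.

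With the TNFa groups taken alone, in a fit that leaves 1 residual degree of freedom to the samples and was added after the data had been seen, 32 windows were higher and 5 lower at an adjusted p under 0.05. The 3 Id3 windows were among the higher ones, at limma adjusted p-values of 0.0112 for the promoter, 0.0134 at 8649 bp and 0.045 at 9038 bp upstream, as were those of Sox6 (0.0125) and Sp7 (0.0442) named above. Over the alternatives the adjusted p of each of these windows reached 0.998, without the replicate term. The promoter of Slx4ip, which encodes a partner of the DNA repair scaffold SLX4 and is named because it had the smallest adjusted p (0.00126), gave 2.44. In the matching fit of BMP4 against untreated cells, 0 windows passed the adjusted test, and 1165 had an unadjusted p under 0.05. This contrast between states is not a test of their difference, which is the interaction given above.

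**Figure D5:**
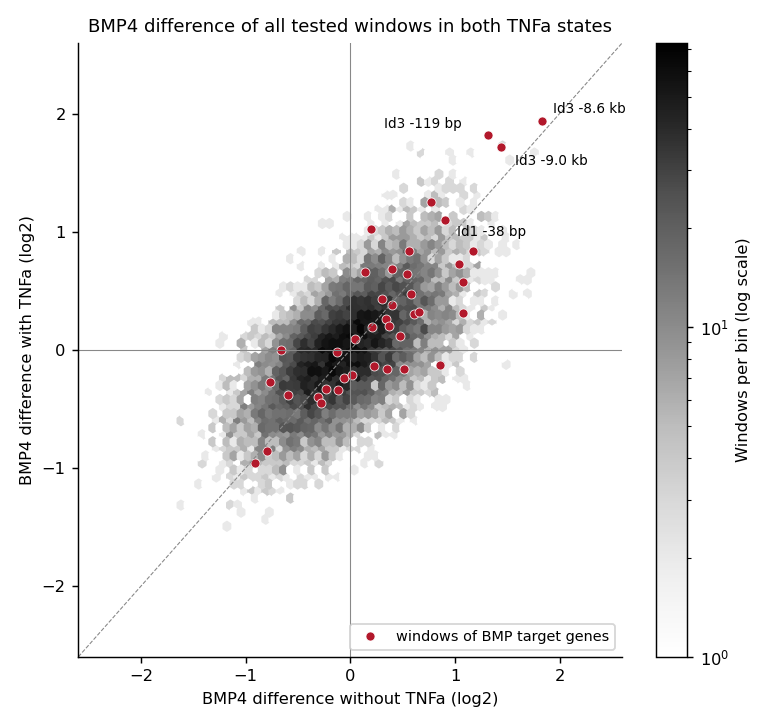
Log2 BMP4 difference without TNFa (horizontal axis) against that with TNFa (vertical axis) for all 14712 tested windows, shaded by the number of windows per bin on a log scale, with the 40 windows of BMP target genes in red; the dashed line marks equal values. The 3 Id3 windows stand furthest to the upper right of the target windows, at 1.32 to 1.83 without TNFa and 1.72 to 1.94 with it.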

How the data were processed

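ATAC-seq of MC3T3-E1 cells gave 8 target libraries and 2 of sonicated DNA. The submitters' processing notes name HOMER 4.11, Bowtie2 2.5.1, Trimmomatic 0.39, deepTools 3.5.1, Picard 2.25.1 and the mm10 build; any read shift for the transposase was not given. Per the file headers, the authors made each group's list of 125 bp windows with HOMER and DESeq2 on its pooled replicates against the background libraries. The deposited values are regularised log2 values, made by the authors in each list separately, although the file headers call them tag counts.

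The log2 transformation was inverted for the tag counts, with 3 fitted constants per list. In the 4 lists 99.32% to 100% of values came out within 0.1 of a whole number, against 16.43% to 19.0% with the constants moved by 5%, and all recovered background counts compared between lists with the same window were equal. Windows were matched by start (within 62 bp, median largest shift 8 bp, 2914 identical), so every group is counted in the window of its own list. Some named windows shifted by far more than the median, for example those of D630013N20Rik (56 bp) and Sox6 (42 bp). The filter required an unscaled tag count of 10 or more in 2 or more libraries, and a sum of 15 or more. Counts were scaled by the trimmed mean of M-values, a pseudocount of 2 was added, and log2 values were fitted with limma 3.58.1 (R 4.3.3) with a mean-variance trend, two-sided, on BMP4, TNFa and replicate number. Fold changes on this scale understate the change of low windows. The residual degrees of freedom were 4. The fit was tested on simulated data.

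Replicate numbers are labels without a stated meaning. The difference between replicate 2 and 1 correlated across windows between every pair of groups, at 0.104 (untreated and both agents) to 0.761, so the number was kept as a term.

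A window belongs to the nearest gene in the deposited annotation. The named windows are the 12 per direction with the smallest p that lie the same way in all 4 pairs, since none passed the adjusted threshold of 0.05; the 4 with the smallest p of each BMP list and 2 of each other list; 3 per direction for the interaction; and all windows of Id1 to Id4, Smad6 and Smad7. Of these, 2 windows are not reported here. Members and the 16 gene lists were chosen with earlier results of these data known. Alternatives covered scaling, pseudocount, filter, matching, the replicate term, the share of tags in windows, window class, single TNFa states and each library left out. Library totals are 16486612.5 to 30051723 tags, and counting error alone limits windows of few tags.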

Additional observations from a re-analysis of the deposited data

Results flagged for a closer look

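The sets of 4 values examined numbered 81: the pair differences of 77 windows, and library totals and shares of tags with or without BMP4. In each set the value furthest out was compared with Dixon's 95% limit. Beyond it lay 3 sets, where chance alone gives about 1 in 20. At the Fxr2 promoter the replicate 2 pair without TNFa differed by -0.2, while the other 3 pairs lay from -2.03 to -1.75. At the window 45466 bp upstream of Smad3, the replicate 2 pair with TNFa differed by -1.35 and the others by -0.28 to -0.1. At the Sp7 window 10032 bp upstream, the replicate 2 pair with TNFa stood at 2.36, above 1.08 to 1.2 in the others. The last 2 of these pairs include replicate 2 of the group given both agents, one of the libraries that stood apart on the first principal component; its part in these values was not tested.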

How the results depend on the processing

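There were 27 alternatives (25 planned, 2 chosen after seeing the data), of which each named BMP4 difference had a value in 22 to 26 and each named interaction in 21 or 22. Of 77 such differences 71 kept their direction in every alternative that gave them a value, as did the 6 interactions. Many of them were chosen for like pairs or a small p in these same libraries. A kept direction was therefore likely beforehand and is no independent support. Windows called higher at an adjusted p under 0.05 numbered 1 with identical starts, 1 outside promoters and 32 with TNFa alone, where 5 were lower; with 1 library left out they numbered 0 to 1. Unadjusted calls (1889) became 353 with identical starts, 512 in promoters, where fewer windows were tested, 1165 against untreated cells only, where fewer libraries were used, 3446 with the share of tags in place of the replicate number, and 845 (without BMP4 replicate 1) to 2589 (without replicate 2 of both agents) with 1 library left out. Without the replicate block they numbered 316, and the smallest adjusted p was 0.998; the cause was not tested. Interactions numbered 0 to 5 with 1 library left out, 5 without replicate 1 of both agents. The median of the BMP targets was 0.2 with identical starts (6 windows), 0.22 with TNFa alone, and 0.2 to 0.41 with 1 library left out. Depth limits windows of few tags most; at a median SE of 0.3 small differences were not detectable.

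The remaining 6 reversed, 5 of them between 0.03 and 0.2 as reported and Smad3 at -0.47, and the cause was not tested. Bmp4 (0.03, 3241 bp from its start) gave -0.06 with the share of tags beside the block and -0.05 to 0.13 with 1 library left out. Id1 (0.07, 5309 bp) gave -0.02 on deposited log2 values minus background, -0.01 with the share of tags, -0.02 with both terms, and -0.08 to 0.23 with 1 library left out. With TNFa alone, Smad6 (24397 bp) gave -0.17 and Smad7 (63776 bp) -0.14. With 1 library left out, Smad6 ranged from -0.05 to 0.38, these Smad7 windows from -0.07 to 0.25 and, at 38489 bp, from -0.05 to 0.44, and Smad3 (45466 bp upstream) from -0.9 to 0.11, the last without replicate 2 of both agents.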
